A study of Saccharomyces cerevisiae with 6 samples.

Results

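Internal transcribed spacer 1 (ITS1) is the stretch of the yeast ribosomal DNA (rDNA) between the genes for 18S and 5.8S rRNA. Its members are the positions that the deposited tables label as this spacer, which are 361 of the 6858 positions measured. They run from position 2501 to position 2861, counted from the start of the transcribed rDNA, and lie at chrXII:464709-465069 on the minus strand of build R64. The RefSeq gene table of that build has ITS1 with the same ends, and it lists a second copy at chrXII:455572-455932. The sources used here do not say how reads that match both copies were placed.

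RNA polymerase I (Pol I) was mapped in *Saccharomyces cerevisiae* with NET-seq (native elongating transcript sequencing), in 2 libraries from a paf1 deletion, 2 from a cdc73 deletion and 2 from wild type (WT). Paf1 and Cdc73, the proteins these genes encode, belong to the Paf1 complex, which accompanies RNA polymerases as they elongate. Per the labels' protocols, all strains were grown at a single temperature with nutation, harvested by filtration and broken open frozen, after which RNA bound to immunoprecipitated Pol I received a linker at its 3' end. The study's title names the role of Paf1 in Pol I transcription as its subject. The sources used here do not name the strain background, the growth phase or the tag or antibody that pulled down Pol I. Nothing in the labels says that 2 libraries of a genotype came from separate cultures, so the p-values below measure only the spread between these libraries. The tables hold rDNA positions only, so neither deletion could be checked from the level of its own transcript.

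ITS1 is transcribed by Pol I as part of the long 35S precursor and is absent from mature ribosomes. Cleavage inside ITS1 separates the precursor of the small ribosomal subunit from that of the large subunit, and in growing yeast it can take place while Pol I is still transcribing. NET-seq reads the last base of an RNA that comes down with the polymerase, so a position with high signal is one where many RNA 3' ends lay. RNA ends left by cleavage, and mature rRNA carried along with the polymerase, enter the same values, and no value here separates them from nascent ends.

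The sequences below are those around the ITS1 positions that the results turn on, as the deposited base column gives them, written 5' to 3' as RNA. Capitals mark the named positions, each line holds 12 nt on either side, and the first line begins in 18S.
Positions 2502, 2503 and 2504, next to the 18S 3' end, chrXII:465054-465080: aaggaucauuaaAGAaauuuaauaauu
Position 2546, chrXII:465012-465036: uguuuuggcaagAgcaugagagcuu
Positions 2563, 2571 and 2572, chrXII:464986-465019: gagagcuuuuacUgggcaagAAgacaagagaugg
Positions 2596, 2597 and 2604, chrXII:464954-464986: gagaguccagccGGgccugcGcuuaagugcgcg
Position 2617, chrXII:464941-464965: cuuaagugcgcgGucuugcuaggcu
Positions 2659, 2660, 2666 and 2671, chrXII:464887-464923: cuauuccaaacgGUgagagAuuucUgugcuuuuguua
Positions 2708 and 2710, chrXII:464848-464874: aaccguuucaauAcAacacacugugga
Position 2769, chrXII:464789-464813: ucgagcaaucggGgcccagagguaa

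The deposited signal is the number of reads at a position scaled to a fixed library total, so every value is relative and the total amount of engaged Pol I was not measured. ITS1 held 290184 and 134316 reads in the paf1 deletion libraries and 155194 and 123734 in the cdc73 deletion libraries, against 6161 and 3047 in the WT libraries, if the smallest value of a library is 1 read. The median ITS1 position had 413 and 178 reads in the paf1 deletion and 167 and 135 in the cdc73 deletion, against 8 and 4 in WT. The shallowest deletion library was 29.5 times as deep as the deepest WT library. Depth and genotype therefore cannot be told apart in any comparison with WT. The limma fits below pool the spread over both genotypes of a pair. Their p-values against WT thus rest on the deep deletion libraries as well and do not measure the WT spread alone. No ITS1 position other than 2501 was at 0 in a deletion library, whereas 10 and 39 ITS1 positions were at 0 in the WT libraries.

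ITS1 took a smaller share of all rDNA signal in both deletions than in WT. The share was 0.978% and 0.946% in the paf1 deletion and 0.842% and 0.827% in the cdc73 deletion, against 1.28% and 1.35% in WT. The 3 genotypes did not overlap, with means of 0.962% ± 0.0229, 0.834% ± 0.0109 and 1.31% ± 0.0462 in that order (SD, n = 2 each). The 95% Wilson intervals of the WT libraries were 1.25% to 1.31% and 1.30% to 1.40%, and they cover counting error only. The paf1 deletion had 0.732 times and the cdc73 deletion 0.635 times the share of WT. An exact two-sided permutation test of 2 libraries against 2 cannot give a p below 0.333, and it gave 0.333 for each pair. In signal per nt, ITS1 averaged 27.1 and 26.2 in the paf1 deletion and 23.3 and 22.9 in the cdc73 deletion, against 35.5 and 37.4 in WT.

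The direction of that difference depended on what ITS1 was set against. Of the signal in the 4 spacers alone, ITS1 held 13.44% and 13.39% in the paf1 deletion and 14.55% and 13.5% in the cdc73 deletion, against 9.86% and 11.58% in WT, so it was higher in the deletions by this measure. Against the 5' external transcribed spacer (5' ETS), which precedes 18S, it was higher too, and ITS1 signal per nt was 0.413 times that of the 5' ETS in the paf1 deletion, 0.456 times in the cdc73 deletion and 0.273 times in WT. The 5' ETS held the most signal of the 4 spacers in every library. Its share of all signal was 4.49% and 4.54% in the paf1 deletion and 3.46% and 3.65% in the cdc73 deletion, against 10.2% and 8.65% in WT. Against ITS2, the other internal spacer, ITS1 was lower in the deletions. Signal per nt in ITS1 was 0.556 and 0.617 times that in ITS2 in the paf1 deletion and 0.516 and 0.467 times in the cdc73 deletion, against 0.896 and 0.873 times in WT. Against 18S, the gene just before it, the ratio was 0.158 in the paf1 deletion, 0.149 in the cdc73 deletion and 0.221 in WT. Against 5.8S, the gene just after it, the ratio was 0.119 in the paf1 deletion, 0.122 in the cdc73 deletion and 0.320 in WT. These are all level ratios per nt within a library, and the exact permutation p was 0.333 wherever the libraries did not overlap.

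**Figure D1:**
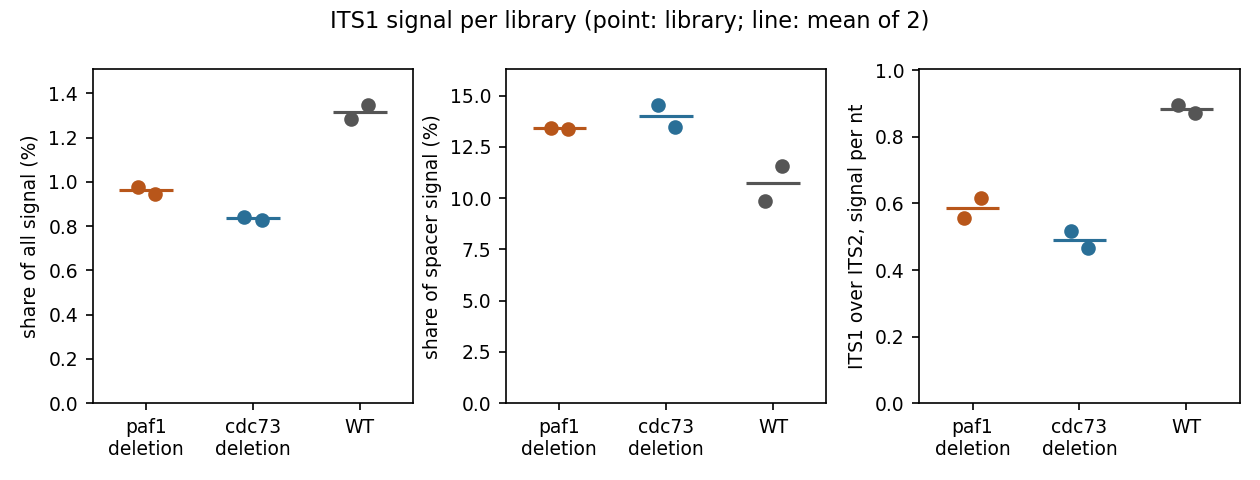
ITS1 per library as a share of all signal (left), as a share of spacer signal (middle) and as signal per nt over that of ITS2 (right), for the paf1 deletion, the cdc73 deletion and WT; points are libraries and lines the means of 2. WT lies highest on the left (1.28% and 1.35%) and on the right (0.896 and 0.873) and lowest in the middle (9.86% and 11.58%).

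Signal dropped steeply from 18S into ITS1. The last 20 nt of 18S averaged 518 in signal in the paf1 deletion, 313 in the cdc73 deletion and 187 in WT. Those averages include a peak at position 2498, named after its values were seen. It had 4650 and 5678 in the paf1 deletion and 2155 and 2930 in the cdc73 deletion, against 658 and 952 in WT. The first 20 nt of ITS1 averaged 57.9 in the paf1 deletion, 39.1 in the cdc73 deletion and 58.2 in WT, and the next 20 nt averaged 8.56 and 8.43 in those deletions, against 10.7 in WT. The signal thus dropped within 40 nt of the border in every genotype.

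Most of the signal of that first stretch sat on positions 2502, 2503 and 2504, which follow the first nt of ITS1. Position 2503 had a signal of 375 and 438 in the paf1 deletion and 273 and 349 in the cdc73 deletion, against 333 and 544 in WT. Position 2502 had 182 and 265 in the paf1 deletion and 133 and 164 in the cdc73 deletion, against 99.96 and 208 in WT. Position 2503 was the only one among the 8 highest of ITS1 in all 3 genotypes, and its libraries overlapped between each deletion and WT. Position 2504 had 184 and 209 in the paf1 deletion and 106 and 129.8 in the cdc73 deletion, against 249.9 and 363 in WT, with the 3 genotypes apart. The first 10 nt held 10.6% of ITS1 signal in the paf1 deletion, 8.71% in the cdc73 deletion and 7.97% in WT, where the libraries overlapped those of both deletions. The first nt of ITS1, position 2501, was at 0 in all 6 libraries, as were the last 2 nt of 18S before it. A gap of 3 nt at 0 was found at each of the 3 mature 3' ends. At 5.8S it took the last 2 nt of the gene and 1 of the spacer, as at 18S, and at 25S the last nt of the gene and 2 of the spacer. These gaps made up 9 of the 10 positions that were at 0 in every library. What made these positions 0 was not tested.

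Cut into 3 stretches, ITS1 had more of its signal in the first and last, and less in the middle, in the deletions than in WT. The first 121 nt held 46.8% and 49.0% of ITS1 signal in the paf1 deletion and 46.0% and 47.4% in the cdc73 deletion, against 41.8% and 42.6% in WT. The middle 120 nt held 30.4% and 29.8% in the paf1 deletion and 33.0% and 31.3% in the cdc73 deletion, against 38.3% and 37.8% in WT. The last 120 nt, the most AU-rich of the 3 stretches at 29.2% GC, held 22.8% and 21.2% in the paf1 deletion and 21.0% and 21.3% in the cdc73 deletion, against 19.9% and 19.7% in WT. No stretch overlapped between a deletion and WT. In the cdc73 deletion the gain of the outer stretches did not lie at the ends of ITS1 throughout. The 20 nt from 2561 to 2580 held 9.39% of its ITS1 signal, against 5.63% in WT, and 2761 to 2780 held 10.6%, against 7.07%. Nearer the end, 2821 to 2840 held 0.817% in the cdc73 deletion, against 1.58% in WT.

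**Figure D2:**
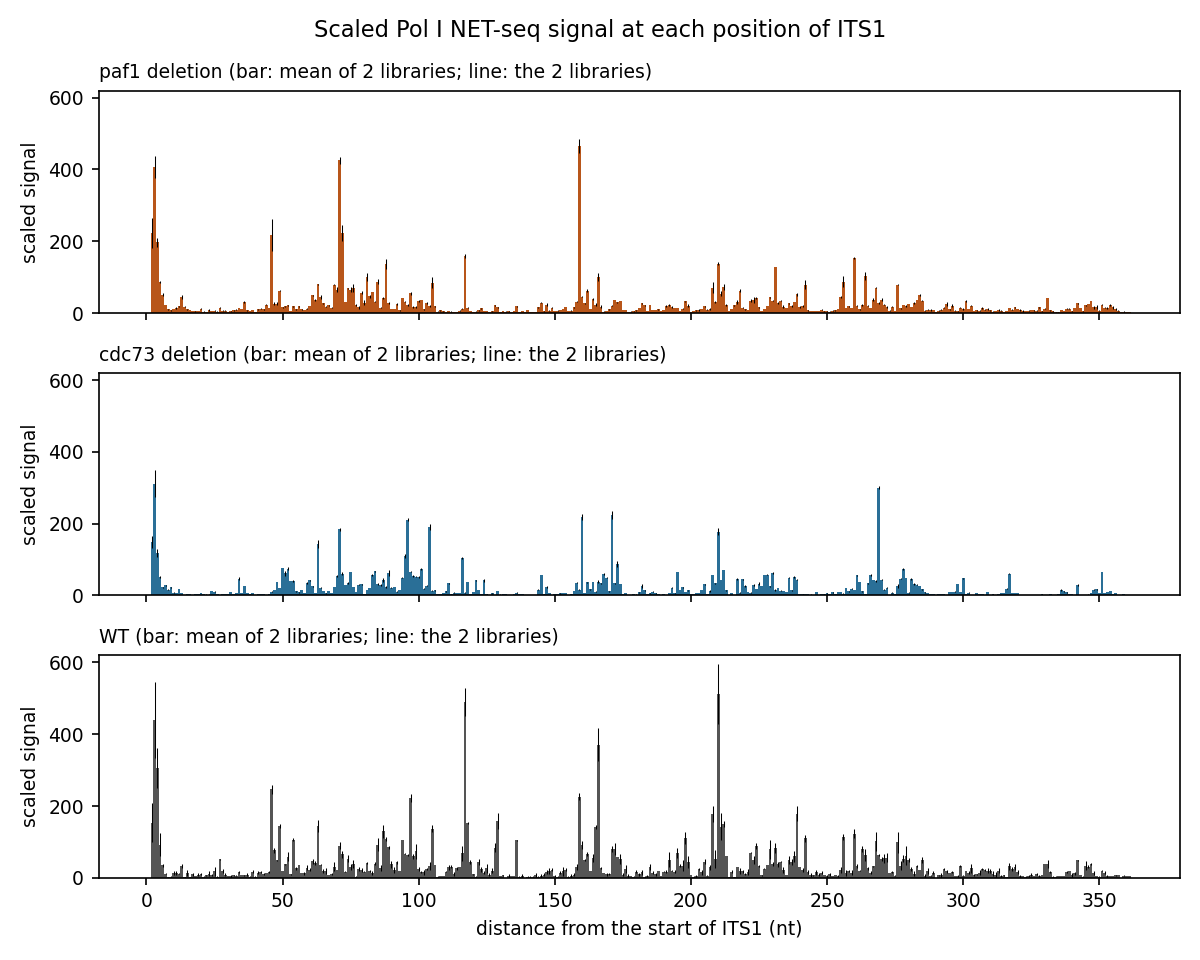
Scaled signal at each of the 361 positions of ITS1 by distance from its start in nt, for the paf1 deletion, the cdc73 deletion and WT from top to bottom; bars are means of 2 libraries and thin lines span the 2. Position 2503, near the left edge, averages 407 in the top profile (paf1 deletion), 311 in the middle one (cdc73 deletion) and 439 in WT, and is among the tall bars of all 3 profiles.

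Profiles of ITS1 were more alike within a genotype than between genotypes. Across the 361 positions, Spearman's rho between the libraries of a genotype was 0.965 in the paf1 deletion, 0.990 in the cdc73 deletion and 0.851 in WT, the shallowest. Between genotypes it averaged 0.724 for the paf1 deletion and WT, 0.562 for the cdc73 deletion and WT, and 0.597 for the 2 deletions. Over all 6858 positions the same means were 0.733, 0.644 and 0.831, so that of the 2 deletions was lower in ITS1 than over the rDNA. These coefficients are descriptions across neighbouring positions, which are not independent and share their base composition, and they depend on depth. Shifting one profile by up to 3 nt gave a lower coefficient than no shift for each pair of genotypes.

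The 8 highest positions differed between the genotypes. Those of the paf1 deletion were 2659, 2571, 2503, 2502, 2572, 2546, 2504 and 2617, from the highest down, and all 8 were purines. Those of the cdc73 deletion were 2503, 2769, 2671, 2660, 2596, 2604, 2571 and 2710, and 6 of the 8 were purines. Those of WT were 2710, 2617, 2503, 2666, 2504, 2546, 2659 and 2597, and all 8 were purines.

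Position 2571 was the adenine that stood out most in the paf1 deletion. It had a signal of 415 and 435 in the paf1 deletion and 188 and 180.1 in the cdc73 deletion, against 99.96 and 79.7 in WT. The 3 genotypes did not overlap, and the paf1 deletion was the highest. In limma's fit over all positions the log2 change was 1.78 ± 0.14 (SE) in the paf1 deletion against WT, with an adjusted p of 0.000103, and 0.77 ± 0.13 in the cdc73 deletion against WT, with an adjusted p of 0.00348. These changes are on a log2(signal + pseudocount) scale with pseudocounts of 48.1, 44.3 and 47.4 for the 3 pairs of genotypes, all above the median ITS1 signal, and the scale understates the change of low positions. The next nt, position 2572, had 199.6 and 246 in the paf1 deletion and 64.5 and 56.0 in the cdc73 deletion, against 56.2 and 75.2 in WT. It rose in the paf1 deletion against WT by 1.25 on the log2 scale (adjusted p = 0.000683, limma), and its cdc73 deletion and WT libraries overlapped.

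Positions 2659 and 2660, a guanine and the uracil after it, held their peak on different bases in the 2 deletions. Position 2659 had 486 and 446 in the paf1 deletion and 17.3 and 14.2 in the cdc73 deletion, against 235 and 217 in WT. Position 2660 had 44.1 and 48.2 in the paf1 deletion and 227 and 212 in the cdc73 deletion, against 79.1 and 102 in WT. The peak thus lay on the guanine in the paf1 deletion and in WT, and on the uracil in the cdc73 deletion. Position 2659 rose in the paf1 deletion (log2 change 0.91, adjusted p = 0.00134) and fell in the cdc73 deletion (log2 change -2.17, adjusted p = 0.000145), each against WT in limma's fit. Position 2660 fell in the paf1 deletion (log2 change -0.55, adjusted p = 0.0179) and rose in the cdc73 deletion (log2 change 0.97, adjusted p = 0.00166). Between the deletions, position 2659 was higher in the paf1 deletion than in the cdc73 deletion by 3.02 ± 0.11 on the log2 scale (SE), the largest difference in ITS1 in that comparison (adjusted p = 1.78e-06, limma).

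Positions 2596 and 2597, a pair of adjacent guanines, also differed in which of the 2 was high. Position 2596 had 25.2 and 20.7 in the paf1 deletion and 216 and 207 in the cdc73 deletion, against 60.4 and 66.4 in WT. Position 2597 had 57.6 and 51.8 in the paf1 deletion and 64.2 and 68.0 in the cdc73 deletion, against 210.3 and 235 in WT. The first guanine was the higher one in the cdc73 deletion and the second in the paf1 deletion and WT. Position 2596 rose in the cdc73 deletion against WT (log2 change 1.25, adjusted p = 0.000443) and fell in the paf1 deletion (log2 change -0.65, adjusted p = 0.00324), and position 2597 fell in both (log2 changes -1.40, paf1 deletion, and -1.27, cdc73 deletion, with adjusted p of at most 0.000455).

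Position 2617, a guanine with 7 G or C among the 9 nt that end there, was the second highest in WT. It had 164 and 154 in the paf1 deletion and 8.85 and 6.48 in the cdc73 deletion, against 529 and 451 in WT, where it rested on 254 and 102 reads. It fell in both deletions, by 1.37 on the log2 scale in the paf1 deletion (adjusted p = 0.000254) and by 3.36 in the cdc73 deletion (adjusted p = 0.000103, limma), the largest fall of any ITS1 position in either comparison with WT. Position 2546, an adenine, had 173 and 261 in the paf1 deletion and 9.12 and 11.1 in the cdc73 deletion, against 258 and 235 in WT. It fell in the cdc73 deletion against WT (log2 change -2.42, adjusted p = 0.000121), while the paf1 deletion and WT libraries overlapped (log2 change -0.17, adjusted p = 0.469). The paf1 deletion was higher than the cdc73 deletion there by 2.18 (adjusted p = 1.27e-05). Positions 2546 and 2571 end the same 6 nt, gcaaga, which ITS1 holds at these 2 places alone and the rDNA at 5. In the cdc73 deletion the first had 9.12 and 11.1 and the second 188 and 180.1.

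Positions 2666 and 2710, both adenines, fell in both deletions. Position 2666 had 89.9 and 111 in the paf1 deletion and 42.3 and 34.1 in the cdc73 deletion, against 325 and 416 in WT (log2 changes -1.49, paf1 deletion, and -2.32, cdc73 deletion). Position 2710, the highest of ITS1 in WT, had 141 and 134 in the paf1 deletion and 188 and 167 in the cdc73 deletion, against 596 and 429 in WT (log2 changes -1.58, paf1 deletion, and -1.31, cdc73 deletion). The adjusted p of these 4 changes was at most 0.00141 in limma's fit. Positions 2708 and 2739, also adenines, fell in the paf1 deletion by 0.93 and by 1.17 and in the cdc73 deletion by 1.11 and by 1.33 on the log2 scale. Both deletions share the WT libraries, so a high WT value lowers both changes at once.

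Position 2563, a uracil, had 82.2 and 77.3 in the paf1 deletion and 153.7 and 132 in the cdc73 deletion, against 162 and 128 in WT. It was lower in the paf1 deletion than in the cdc73 deletion (log2 change -0.58, adjusted p = 0.00256) and than in WT (log2 change -0.59, adjusted p = 0.0144), by limma.

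Positions 2604, 2671 and 2769 were peaks of the cdc73 deletion. Position 2769, a guanine, had 24.3 and 31.6 in the paf1 deletion and 304 and 296 in the cdc73 deletion, against 60.4 and 66.4 in WT. Position 2671, a uracil, had 21.8 and 19.7 in the paf1 deletion and 235 and 214 in the cdc73 deletion, against 72.9 and 88.5 in WT. Position 2604, a guanine, had 22.0 and 16.7 in the paf1 deletion and 181 and 199.8 in the cdc73 deletion, against 22.9 and 44.3 in WT, from 11 and 10 reads. All 3 rose in the cdc73 deletion against WT, by 1.68, 1.11 and 1.61 on the log2 scale in the order given, with adjusted p of at most 0.000895 in limma's fit. Against WT in the paf1 deletion, positions 2769 and 2671 fell by 0.55 and by 0.90, and position 2604 had a log2 change of -0.27 that did not pass (adjusted p = 0.145).

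A pause site was a position whose signal, in each of the 2 libraries of a genotype, exceeded the mean of the 50 nt on either side of it by more than 3 SD of those nt. ITS1 had 6 pause sites in the paf1 deletion, 7 in the cdc73 deletion and 3 in WT, at 13 positions in all. That was 1.66%, 1.94% and 0.831% of its positions, where the background over the rDNA was 1.66% in the paf1 deletion, 1.97% in the cdc73 deletion and 1.90% in WT, so the ITS1 rate of both deletions was near the background and that of WT below it. Position 2710 was the only one that met this in all 3 genotypes. The paf1 deletion had the others at 2571, 2572, 2659, 2731 and 2760, the cdc73 deletion at 2571, 2596, 2604, 2660, 2671 and 2769, and WT at 2617 and 2666. The deletions shared 2 sites, which is 33.3% of the paf1 deletion's and 28.6% of the cdc73 deletion's. Over the whole rDNA they shared 55, which is 48.2% of the paf1 deletion's 114 and 40.7% of the cdc73 deletion's 135, and with so few sites in ITS1 its overlap was not tested against that. Of the 6 sites of the paf1 deletion, 5 were adenines and none a uracil, while the cdc73 deletion had 2 adenines, 3 guanines and 2 uracils, and WT 2 adenines and 1 guanine. Positions 2731 and 2760, both adenines, are named after their values were seen. Position 2731 had 127 and 129.5 in the paf1 deletion and 18.1 and 12.6 in the cdc73 deletion, against 68.7 and 97.4 in WT. Position 2760 had 156 and 151 in the paf1 deletion and 15.9 and 14.7 in the cdc73 deletion, against 135 and 111 in WT. Without WT replicate 1 the rule found 6 sites in WT, which are then those of 1 library.

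Base by base, the 3 genotypes differed most at adenines and uracils. Relative occupancy is the mean signal at the positions of a base over the mean of ITS1 in the same library, and ITS1 has 110 A, 57 C, 73 G and 121 U. At adenines it was 1.45 and 1.50 in the paf1 deletion and 0.811 and 0.806 in the cdc73 deletion, against 1.31 and 1.33 in WT. At uracils it was 0.542 and 0.523 in the paf1 deletion and 0.994 and 0.966 in the cdc73 deletion, against 0.618 and 0.600 in WT. The cdc73 deletion was thus below its own ITS1 mean at adenines and near it at uracils, with no overlap with the other genotypes at either base. At guanines it was 1.26 and 1.25 in the paf1 deletion and 1.43 and 1.49 in the cdc73 deletion, against 1.23 and 1.32 in WT. At cytosines it was 0.761 and 0.727 in the paf1 deletion and 0.834 and 0.824 in the cdc73 deletion, against 0.913 and 0.800 in WT. The sign of the small mean differences at guanines in the paf1 deletion and at cytosines in the cdc73 deletion, each against WT, turned with 1 WT library left out, to 0.0294 at guanines without WT replicate 2 and to 0.0287 at cytosines without WT replicate 1. The exact permutation p was 0.333 where the libraries did not overlap, the smallest possible.

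Adenines were low in the cdc73 deletion in the neighbouring spacers as well. In ITS2 their relative occupancy was 1.21 in the paf1 deletion, 0.634 in the cdc73 deletion and 1.14 in WT, and in the 5' ETS it was 1.34 and 0.561 in those deletions, against 1.40 in WT. At uracils it was 0.919 in the paf1 deletion, 1.22 in the cdc73 deletion and 1.01 in WT in ITS2. In the 5' ETS the uracil values were 0.599 and 1.24 in those deletions, against 0.725 in WT. The low value of the cdc73 deletion at adenines and its high value at uracils were thus not particular to ITS1.

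The base that follows the RNA 3' end, which is the next to be added, differed too. Where that base was U, relative occupancy in ITS1 was 0.985 and 0.932 in the paf1 deletion and 0.453 and 0.435 in the cdc73 deletion, against 0.924 and 0.904 in WT. Where it was G, the values were 1.27 and 1.36 in the paf1 deletion and 1.89 in both cdc73 deletion libraries, against 1.17 and 1.20 in WT. Where it was C, the paf1 deletion was the low one, at 0.674 and 0.659, against 1.03 and 1.02 in the cdc73 deletion and 1.06 and 1.05 in WT. Where it was A, all 6 libraries lay between 0.940 and 1.02. Where the base before the 3' end was C, relative occupancy was 0.939 and 0.868 in the paf1 deletion and 1.52 and 1.49 in the cdc73 deletion, against 1.35 and 1.27 in WT, the widest split between the deletions at that site. Positions 2596, 2604 and 2671, peaks of the cdc73 deletion given above, each follow a C and add to that split. Whether it would remain without them was not tested. Where the base before the 3' end was G, relative occupancy was 1.76 and 1.82 in the paf1 deletion and 1.48 and 1.45 in the cdc73 deletion, against 1.93 and 1.85 in WT. Where it was A, the paf1 deletion was the highest at 1.04 and 1.07, against 0.783 and 0.858 in WT, which overlapped the cdc73 deletion, and where it was U, the cdc73 deletion was the highest at 0.637 and 0.628, against 0.472 and 0.491 in WT. The exact permutation p was again 0.333 wherever libraries did not overlap.

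**Figure D3:**
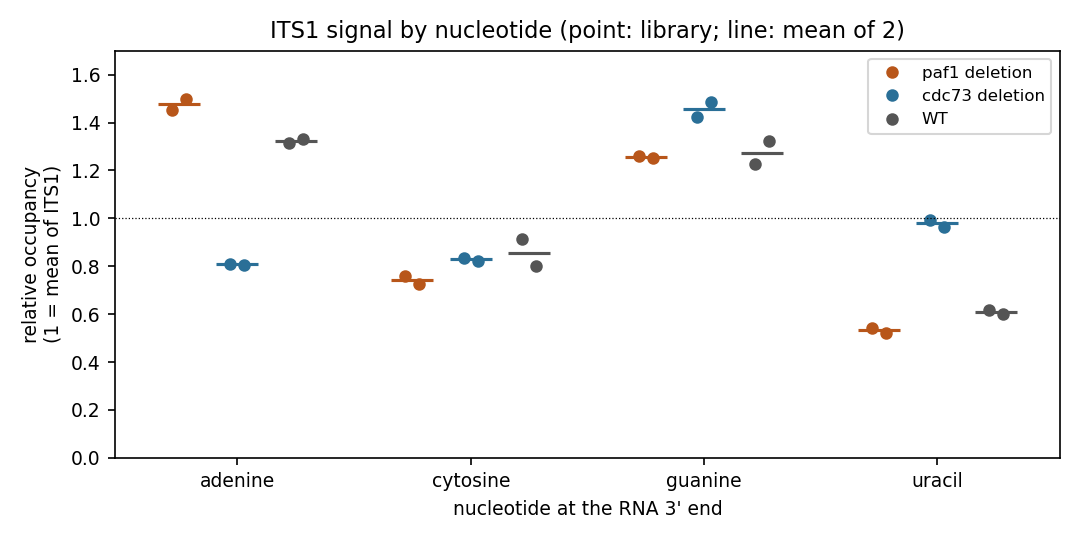
Relative occupancy of ITS1 for RNA 3' ends on each of the 4 bases (mean signal at that base over the mean of ITS1 in the same library), with 1 point per library, for the paf1 deletion, the cdc73 deletion and WT; lines are the means of 2 libraries and the dotted line marks the mean of ITS1. At adenine the cdc73 deletion lies at 0.811 and 0.806, below the other genotypes, and at uracil at 0.994 and 0.966, above them.

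Position by position, limma tested 360 of the 361 positions, all except 2501. In the paf1 deletion against WT, 34 ITS1 positions were higher and 83 lower at an adjusted p under 0.05, where the background over all tested positions was 29.6% higher and 19.6% lower. The ITS1 shares were 9.44% higher and 23.1% lower, so fewer of its positions than of all positions were higher. Without a trend in limma the counts were 22 higher and 62 lower (6.11% and 17.2%, background 28.9% and 18.6%), so the share of lower positions was above the background with the trend and below it without. The median log2 change was -0.06 in ITS1 and 0.09 over all positions, and 2 positions rose and 10 fell by at least 1 on this scale. The pseudocount of 48.1 was above the median ITS1 signal, which averaged 13.2 in the paf1 deletion and 17.2 in WT. The scale thus shrinks the typical ITS1 change more than that over all positions. Set against the total of its own region in place of the library's, ITS1 had 57 positions higher and 41 lower, where the background was 29.1% and 18.4%. On the library's total, leaving out either WT library raised both counts, and leaving out either paf1 deletion library lowered both. The background moved the same way each time. With either paf1 deletion library left out, the share of lower ITS1 positions was below the background. Scaling the libraries to equal medians moved the median log2 change over all positions to -0.01.

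In the cdc73 deletion against WT, 53 ITS1 positions were higher and 120 lower, where the background was 30.0% higher and 29.4% lower. The ITS1 shares were 14.7% and 33.3%, so again fewer were higher than over all positions. Without the trend the counts were 47 and 99 (13.1% and 27.5%, background 29.7% and 28.5%), and the share of lower positions again moved from above to below the background. The median log2 change was -0.13 in ITS1 and -0.00 over all positions, and 5 positions rose and 30 fell by at least 1. The pseudocount shrinks the ITS1 values more here too, as the median ITS1 signal averaged 9.04 in the cdc73 deletion and 17.2 in WT. Set against its own region's total, ITS1 had 85 positions higher and 92 lower, where the background was 30.3% and 28.8%. On the library's total, leaving out either WT library raised both counts, and leaving out either cdc73 deletion library lowered both. The background again moved the same way. With either cdc73 deletion library left out, the share of lower ITS1 positions was below the background.

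In the paf1 deletion against the cdc73 deletion, where depth is closer, 169 ITS1 positions were higher and 85 lower, where the background was 34.4% higher and 20.6% lower. The ITS1 shares were 46.9% and 23.6%. Without the trend only 88 were higher and 63 lower (24.4% and 17.5%, background 28.7% and 19.3%), so both shares were above the background with the trend and below it without. The median log2 change was 0.07 both in ITS1 and over all positions, and 13 positions rose and 7 fell by at least 1. The pseudocount of 47.4 again shrinks the ITS1 values more, so these equal medians do not show an equal typical change. With no pseudocount added, the median ITS1 signal averaged 13.2 for the paf1 deletion against 9.04 for the cdc73 deletion, 1.46 times as high. As shares of their own region, 142 were higher and 99 lower, where the background was 34.5% and 20.7%.

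**Figure D4:**
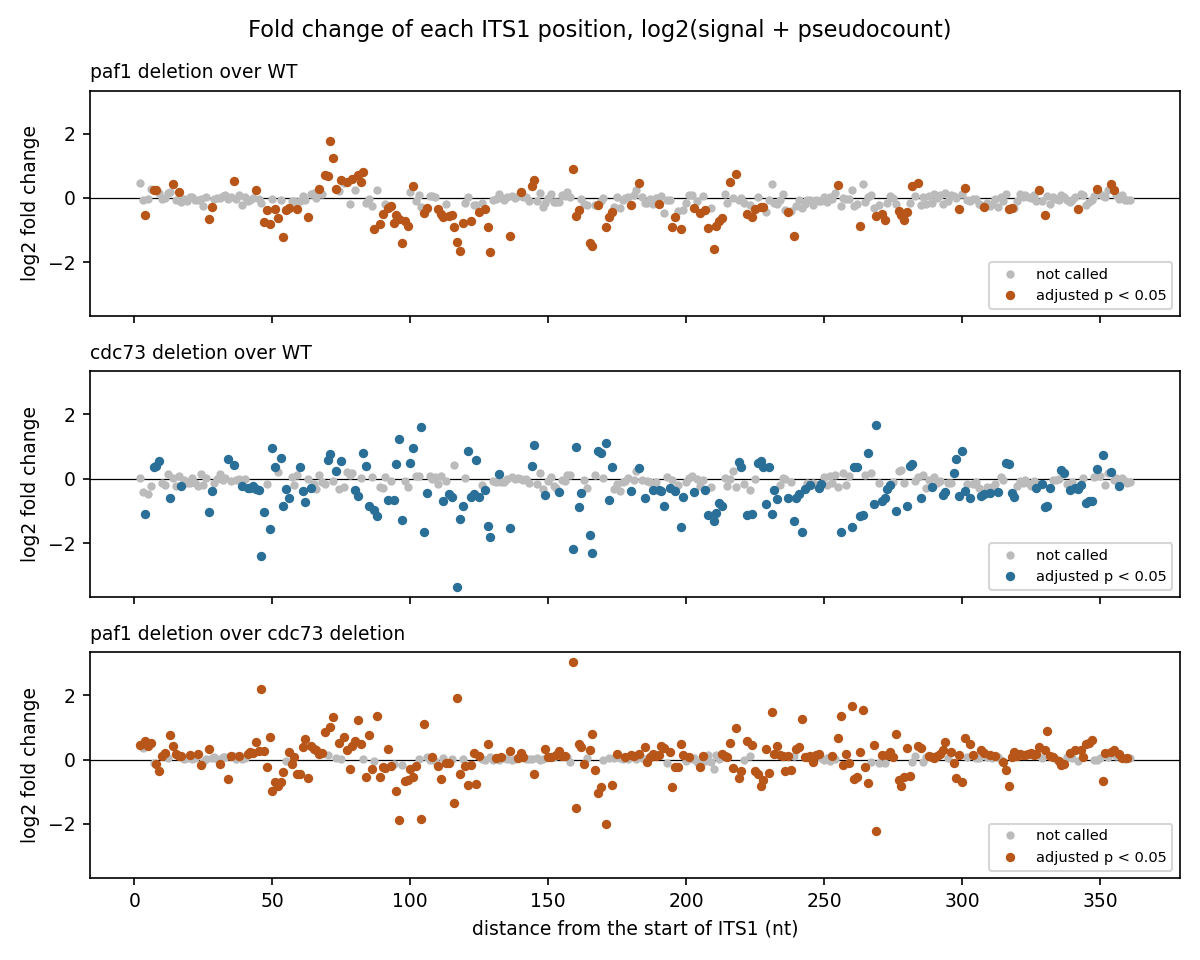
Log2 change of each tested ITS1 position on the log2(signal + pseudocount) scale, by distance from the start of ITS1 in nt, for the paf1 deletion over WT, the cdc73 deletion over WT and the paf1 deletion over the cdc73 deletion; coloured points have an adjusted p under 0.05 in limma and grey points do not. Changes reach 1.78 at position 2571 in the top panel, -3.36 at position 2617 in the middle one and 3.02 at position 2659 in the bottom one.

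The calls differed by base. In the paf1 deletion against the cdc73 deletion, 86 of 109 tested ITS1 adenines were higher and 7 lower, where the background at adenines was 52.4% higher and 7.74% lower. At the 121 uracils, 32 were higher and 43 lower, where the background was 22.7% higher and 30.4% lower. Guanines had 24 higher and 23 lower of 73 (background 33.4% and 19.4%), and cytosines 27 and 12 of 57 (background 27.5% and 25.9%). Without the trend 54 of the adenines were higher and 8 lower (background 45.7% and 7.42%), and 8 of the uracils higher and 31 lower (background 18.1% and 28.4%). Adenines were also the most one-sided base in the cdc73 deletion against WT. There, 55 of 109 ITS1 adenines were lower and 4 higher, where the background at adenines was 36.1% lower and 26.5% higher. The 121 uracils of that comparison had 29 higher and 23 lower, where the background was 35.3% higher and 22.4% lower. Its guanines had 12 higher and 23 lower (background 27.5% and 29.3%), and its cytosines 8 and 19 (background 30.8% and 30.4%). Lower calls outnumbered higher ones at each of the 4 bases in the paf1 deletion against WT, on the library's total, where 14 adenines were higher and 23 lower (background 37.2% and 18.0%). Uracils had 10 higher and 22 lower there (background 25.8% and 19.6%), guanines 5 and 23 (background 29.1% and 17.7%), and cytosines 5 and 15 (background 25% and 24.6%).

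Windows of 20 nt hold more reads than single positions, and ITS1 has 18 of the 340 windows of the rDNA. As shares of all signal, 2 ITS1 windows were higher and 11 lower in the paf1 deletion against WT, where the background was 36.2% higher and 29.4% lower. The median log2 change, here without a pseudocount, was -0.64 over the ITS1 windows and 0.08 over all windows. The window from 2561 to 2580, which holds positions 2563, 2571 and 2572, held 0.145% of all signal in the paf1 deletion, against 0.0739% in WT (log2 change 0.97 ± 0.11 SE, adjusted p = 2.46e-05, limma). The window from 2641 to 2660 held 0.0727% in the paf1 deletion, against 0.0509% in WT, and it also rose (log2 change 0.52, adjusted p = 0.00308). The windows that fell most lay side by side, with log2 changes of -1.44 for 2601 to 2620 and -1.82 for 2621 to 2640. As shares of ITS1 itself, 6 windows were higher and 6 lower, where the background was 38.8% and 30.0%.

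In the cdc73 deletion against WT, 0 ITS1 windows were higher and 13 were lower in limma's fit, where the background was 32.4% higher and 41.2% lower. At an unadjusted p under 0.05 limma also had 0 windows higher. The median log2 change was -0.74 over the ITS1 windows and -0.13 over all windows. The largest falls were at 2741 to 2760, which held 0.0146% of all signal in the cdc73 deletion, against 0.0549% in WT (log2 change -1.91 ± 0.09 SE, adjusted p = 1.21e-05), and at 2621 to 2640 (log2 change -1.65). The window from 2821 to 2840, which begins with a run of 5 adenines, held 0.00681% in the cdc73 deletion, against 0.0208% in WT (log2 change -1.62, adjusted p = 3.95e-05). As shares of ITS1 itself, 6 windows were higher and 8 lower, where the background was 36.2% and 41.2%.

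In the paf1 deletion against the cdc73 deletion, 7 ITS1 windows were higher and 4 lower, where the background was 32.1% higher and 16.8% lower. The median log2 change was 0.15 over the ITS1 windows and 0.10 over all windows. The window from 2741 to 2760 differed most, at 0.0509% in the paf1 deletion, against 0.0146% in the cdc73 deletion (log2 change 1.80, adjusted p = 0.00012), followed by 2821 to 2840 (log2 change 1.43, adjusted p = 0.000312). The window from 2561 to 2580 was higher in the paf1 deletion by 0.89 (adjusted p = 0.000977). As shares of ITS1 itself, 5 windows were higher and 5 lower, where the background was 30.0% and 16.2%. Without cdc73 deletion replicate 1 the counts were 4 higher and 1 lower, without cdc73 deletion replicate 2 they were 4 and 0, and without paf1 deletion replicate 2 they were 7 and 2.

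**Figure D5:**
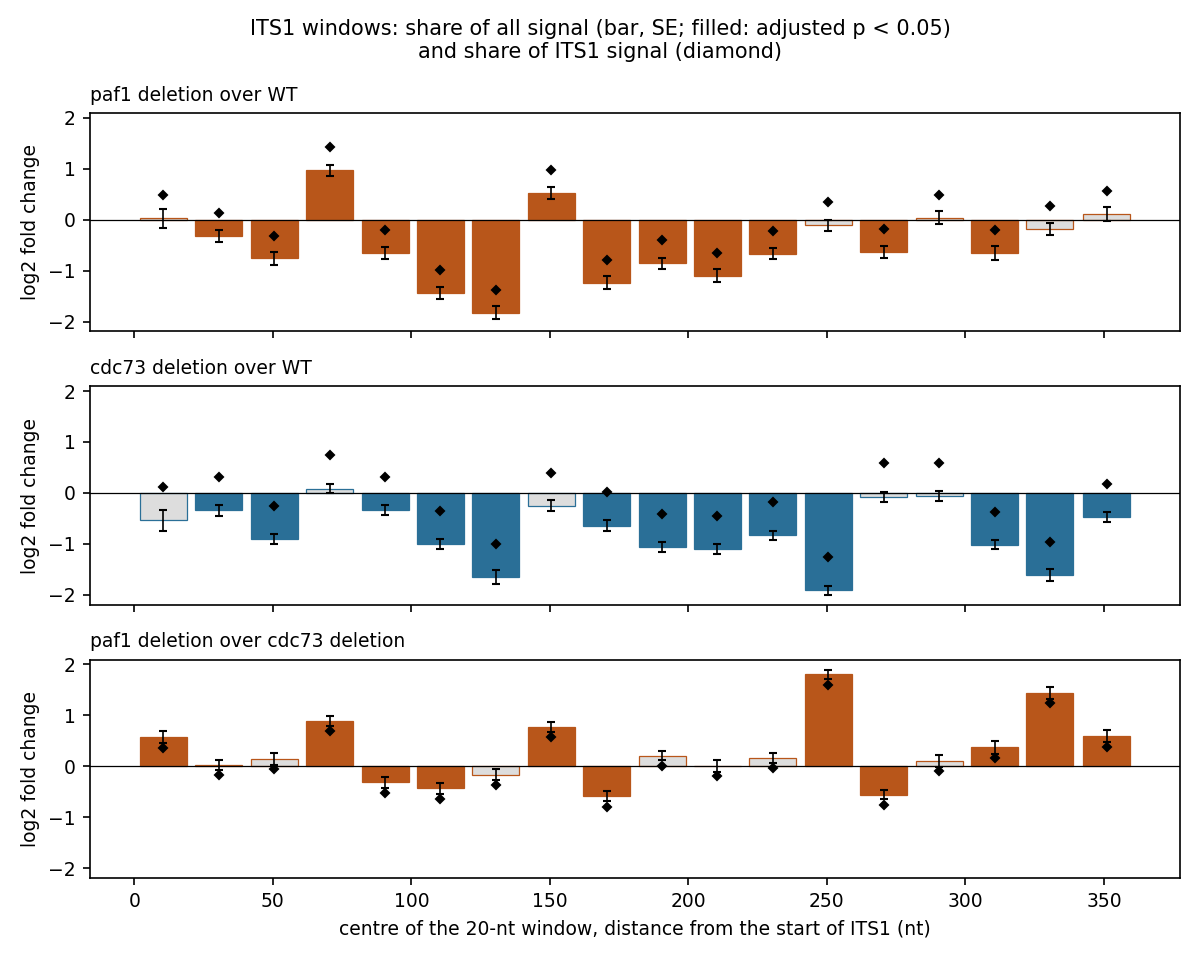
Log2 change of the 18 windows of 20 nt along ITS1, by the distance of their centre from its start in nt, for the paf1 deletion over WT, the cdc73 deletion over WT and the paf1 deletion over the cdc73 deletion; bars are changes of the share of all signal with standard errors from limma, filled where the adjusted p is under 0.05, and diamonds are changes of the share of ITS1 signal. The window from 2561 to 2580 lies at 0.97 in the top panel, and that from 2741 to 2760 at -1.91 in the middle one.

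ITS1 holds 4 runs of 5 or more identical bases. The run of 7 uracils at 2528 to 2534 had a mean signal of 0.269 and 0.317 times the ITS1 mean in the paf1 deletion and 0.457 and 0.546 times in the cdc73 deletion, against 0.234 and 0.271 times in WT. The run of 5 uracils at 2813 to 2817 lay at 0.314 and 0.241 in the paf1 deletion and 0.838 in both cdc73 deletion libraries, against 0.445 and 0.284 in WT. Both runs were relatively higher in the cdc73 deletion. The run of 5 uracils at 2742 to 2746 went the other way, at 0.873 and 0.677 in the paf1 deletion and 0.192 and 0.195 in the cdc73 deletion, against 0.715 and 0.995 in WT. The run of 5 adenines at 2821 to 2825 lay at 0.282 and 0.230 in the paf1 deletion and 0.0409 and 0.0391 in the cdc73 deletion, against 0.129 and 0.142 in WT. Mean WT signal in this run, and in the uracil runs at 2528 to 2534 and 2813 to 2817, was below that of the median ITS1 position. That position had only 8 and 4 reads in WT.

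The authors' deposited tables give an unadjusted p for each position and pair. It was under 0.05 at 53 of 360 ITS1 positions for the paf1 deletion and WT (14.7%), where the authors' deposited table had 21.6% over all positions. In the authors' deposited table for the cdc73 deletion and WT it was under 0.05 at 73 of 360 (20.3%, against a background of 27.1%). For the 2 deletions the authors' deposited table had 125 of 360 (34.7%, against a background of 22.5%).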

How the data were processed

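NET-seq was run on 2 libraries each of the paf1 deletion, the cdc73 deletion and WT. The authors deposited 1 table per pair of genotypes, with a scaled read signal per position, per the file headers. Per the submitters' processing notes, the tools included STAR 2.7.1a for build R64, cutadapt 3.4, bedtools 2.28.0, SAMtools 1.6 and R 4.3.2. The use of the linker's molecular identifiers is not given in these sources. Reads without such identifiers are not independent molecules, so intervals cover counting error only. The deposited p-value is the authors' own and is not adjusted. Dividing a library's signal by its smallest value gave whole reads, within 0.1 read, at all positions of ITS1 in all 6 libraries. edgeR was run on these recovered reads for the cdc73 deletion against WT as an alternative. The paf1 deletion columns hold too few low values for that step.

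The whole rDNA was fitted with limma 3.58.1 (R 4.3.3; lmFit, then eBayes with trend) on log2(signal + pseudocount), keeping positions with signal in 2 or more of a pair's 4 libraries. The pseudocount was 0.5 times the median signal above 0, and the threshold was a Benjamini-Hochberg adjusted p of 0.05. Shares of signal in 20-nt windows were fitted on the log2 scale without trend. Single values per library were compared by exact two-sided permutation tests. The scripts were tested on simulated data. Python 3.11.15, numpy 2.4.6, pandas 2.3.3, scipy 1.17.1, matplotlib 3.10.9, ViennaRNA 2.7.2 and edgeR 4.0.16 were also used.

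The positions named are the 8 highest in each genotype, the 6 largest rises and the 6 largest falls of each comparison, pause sites of all 3 genotypes and runs of 5 or more identical bases. A rise or fall had to pass the threshold, have groups that did not overlap and have a mean no lower than the median tested position. In the paf1 deletion against WT only 3 rises did. The members and lists were chosen with earlier results of these data known. Alternatives changed the pseudocount, the filter, the scaling, the trend, the window length, the pause rule and the libraries kept.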

Additional observations from a re-analysis of the deposited data

How the results depend on the processing

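Of 420 repeats of the 33 named position results, 414 kept direction and call, none turned direction, and the other 6 all lost the call of position 2502 in the paf1 deletion against the cdc73 deletion. The named positions were chosen with groups that did not overlap, so their direction could not turn with a library left out or another pseudocount. They were also chosen as the largest changes among called positions, which favoured keeping the call. These repeats thus say little about positions not named. Of 270 repeats of the 37 called windows, 229 kept direction and call, 36 lost the call and 5 turned direction. As a share of spacer signal the ITS1 differences reversed, to 2.69 and 3.30 percentage points for the paf1 and cdc73 deletions against WT and -0.607 between the deletions. Medians in place of means reversed relative occupancy at cytosine in the cdc73 deletion (0.0261) and at uracil in the paf1 deletion (0.00585), each against WT. Leaving out 1 library gave -0.0644 to 0.0294 at guanine (paf1 deletion) and -0.0839 to 0.0287 at cytosine (cdc73 deletion), again against WT. WT pause sites numbered 7 at mean + 2 SD, 5 with 25 nt on each side, and 3 to 6 in single libraries, a check added after seeing the data. Called positions, higher and lower, became 57 and 41 (paf1 deletion) and 85 and 92 (cdc73 deletion) as a share of their own region, both against WT. Without trend, 22 were higher in the paf1 deletion against WT and 88 in the paf1 deletion against the cdc73 deletion (background 28.9% and 28.7%). Leaving out 1 library gave 17 to 83 higher and 41 to 158 lower (paf1 deletion) and 24 to 98 higher and 69 to 206 lower (cdc73 deletion), each against WT. Windows of 10 nt gave 5 higher and 19 lower (paf1 deletion) and 4 and 24 (cdc73 deletion) against WT, and 17 and 8 between the deletions. Windows of 40 nt gave 1 and 4 for the paf1 deletion against WT and 4 and 2 between the deletions. As a share of their own region, windows numbered 6 and 6 (paf1 deletion) and 6 and 8 (cdc73 deletion) against WT. That setting reversed 2521 to 2540 against WT in the paf1 deletion (0.13) and, with the cdc73 deletion, 2521 to 2540 (0.31), 2581 to 2600 (0.32), 2661 to 2680 (0.011) and 2841 to 2861 (0.18). Between the deletions, leaving out 1 library gave 4 to 7 windows higher and 0 to 4 lower. The cause of these changes was not tested, beyond the fewer libraries, other windows or other totals each setting uses. The labels number the replicates alike, but the same numbers did not deviate together (correlations of 0.0612, -0.00765 and -0.202 over all positions for the paf1 deletion and WT, the cdc73 deletion and WT, and the deletions, and 0.137, -0.0232 and -0.125 in ITS1), so they were not taken as pairs. With a replicate block the called positions were 31 and 84, 46 and 132, and 160 and 83, in the same order of pairs. The background was then 30.6% and 20.3%, 31.3% and 31.2%, and 33.2% and 18.7%. The windows with that block were 2 and 11, 0 and 14, and 7 and 3. A crossed pairing of the deletions, added after seeing the data, gave 174 and 88 positions (background 38.4% and 23.7%) and 7 and 4 windows. edgeR on the recovered reads called 50 positions higher and 127 lower in the cdc73 deletion against WT (background 33.2% and 30.0%). Depth limits the WT values, with a median of 8 and 4 reads per ITS1 position.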

Other observations

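ITS1 signal differed with the base composition of the last 9 nt of the RNA, the stretch paired with the DNA template behind the 3' end. At the 38 positions with 6 to 9 G or C in that stretch, mean signal over the ITS1 mean was 1.06 and 1.02 in the paf1 deletion and 2.16 and 2.19 in the cdc73 deletion, against 1.84 and 1.73 in WT. The paf1 deletion was thus the lowest at GC-rich hybrids and the 3 genotypes did not overlap. Across the 361 positions Spearman's rho of signal with that G and C count was 0.242 and 0.295 in the paf1 deletion and 0.339 and 0.326 in the cdc73 deletion, against 0.384 and 0.358 in WT. These are descriptions across overlapping stretches of the same sequence.

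Signal was only weakly related to the predicted folding of the RNA behind the polymerase, and was slightly higher where that folding was weaker. A higher folding energy stands for weaker folding. Spearman's rho with the folding energy of a 40-nt stretch that ended 15 nt before the 3' end was 0.161 and 0.151 in the paf1 deletion and 0.0613 and 0.0824 in the cdc73 deletion, against 0.166 and 0.154 in WT.

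The last 10 nt of ITS1, next to 5.8S, held 1.03% of ITS1 signal in the paf1 deletion, 0.602% in the cdc73 deletion and 0.465% in WT. By library this was 1.16% and 0.896% in the paf1 deletion and 0.575% and 0.628% in the cdc73 deletion, against 0.438% and 0.492% in WT. The WT shares rest on few reads, as all of ITS1 had 6161 and 3047 in WT. The first 20 nt of 5.8S beyond them averaged 161 in signal in the paf1 deletion, 55.3 in the cdc73 deletion and 101 in WT. The Gini coefficient of ITS1, which is 0 for an even profile, was 0.590 ± 0.017 in the paf1 deletion, 0.638 ± 0.002 in the cdc73 deletion and 0.621 ± 0.010 in WT (SD, n = 2 each).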
